A study of Mus musculus with 24 samples.

Results

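The interferon-induced transmembrane genes *Ifitm1* (ENSMUSG00000025491), *Ifitm2* (ENSMUSG00000060591), *Ifitm3* (ENSMUSG00000025492), and *Ifitm6* (ENSMUSG00000059108) were 4 of the 32285 genes measured in single cells of Panc02 mouse tumors. They were taken by symbol, and the family was selected on measured values, chosen by the level of *Ifitm1*, which was higher in all CD8 and CD4 T cells together and lower in exhausted CD8 T cells with the neoantigen vaccine PancVAX. The PancVAX values of these 4 genes in T cells are therefore given as a description with no test. The 3 other genes of the same name, *Ifitm5*, *Ifitm7*, and *Ifitm10*, are not members and were counted with 72, 10, and 3515 UMIs in the gated cells.

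Ifitm proteins are small membrane proteins that sit in the plasma membrane and in endosomes and hinder the fusion of enveloped viruses with the cell. Type I and type II interferons raise their transcription, and some cells, memory T cells among them, carry them without an ongoing infection. *Ifitm1* is found mainly at the cell surface and *Ifitm3* in endosomes.

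Male C57BL/6 mice, 6 to 7 weeks old, carried subcutaneous tumors of Panc02, a mouse pancreatic cancer line, and by the methods of the study the tumors were taken on day 38, although a figure legend of the study gives an earlier day for these cells. The days of anti–CTLA-4 follow the labels, and the same legend gives an earlier second dose. All 8 treatments combined PancVAX or none (50 ug of each peptide on days 12 and 19) with anti–PD-1 or none (100 ug from day 12) and anti–CTLA-4 or none (100 ug on days 15 and 22), and isotype antibodies stood in where no checkpoint antibody was given. PancVAX was given with AddaVax and a STING agonist, so vaccine and adjuvants cannot be told apart. Each treatment gave 1 library of whole dissociated tumor and 1 of Percoll-enriched cells, each pooled over mice, and the sum of both is called a pool here (4 pools with and 4 without PancVAX). Percoll libraries also had T cell receptor (TCR) sequences.

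The 4 members lie within 62056 bases of chromosome 7 (GRCm38.p6, the assembly also called mm10). *Ifitm2* is at chr7:140954837-140959686, *Ifitm1* at chr7:140967429-140969827, *Ifitm3* at chr7:141009590-141010744, and *Ifitm6* at chr7:141015812-141016892. Promoters of all 4 were taken from RefSeq and are shown because the members did not move alike. Each run goes 5′ to 3′ on the strand of the gene, from 250 bases before an annotated start to 50 after it, and capitals mark the core of the interferon-stimulated response element, which is GAAA, any 2 bases, and GAAA again, searched on both strands.
Ifitm1, chr7:140967826-140968125, plus strand: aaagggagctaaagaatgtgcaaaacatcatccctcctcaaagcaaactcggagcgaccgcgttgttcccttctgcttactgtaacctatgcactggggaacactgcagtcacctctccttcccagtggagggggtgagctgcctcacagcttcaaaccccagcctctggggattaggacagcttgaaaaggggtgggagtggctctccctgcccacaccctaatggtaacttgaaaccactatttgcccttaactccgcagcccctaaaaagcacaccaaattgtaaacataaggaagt
Ifitm2, chr7:140955912-140956211, minus strand: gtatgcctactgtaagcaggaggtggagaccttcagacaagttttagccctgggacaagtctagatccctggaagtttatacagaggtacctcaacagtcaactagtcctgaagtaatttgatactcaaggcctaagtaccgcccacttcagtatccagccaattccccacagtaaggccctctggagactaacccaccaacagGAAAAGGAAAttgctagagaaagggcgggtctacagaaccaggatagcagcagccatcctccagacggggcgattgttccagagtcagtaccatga
Ifitm3, chr7:141010695-141010994, minus strand: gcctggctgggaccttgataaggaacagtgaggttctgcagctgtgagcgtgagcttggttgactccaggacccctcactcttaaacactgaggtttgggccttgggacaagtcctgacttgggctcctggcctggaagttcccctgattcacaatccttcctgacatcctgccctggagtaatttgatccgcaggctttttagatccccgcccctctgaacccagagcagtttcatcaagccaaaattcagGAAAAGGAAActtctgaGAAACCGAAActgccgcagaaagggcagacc
Ifitm6, chr7:141016843-141017142, minus strand: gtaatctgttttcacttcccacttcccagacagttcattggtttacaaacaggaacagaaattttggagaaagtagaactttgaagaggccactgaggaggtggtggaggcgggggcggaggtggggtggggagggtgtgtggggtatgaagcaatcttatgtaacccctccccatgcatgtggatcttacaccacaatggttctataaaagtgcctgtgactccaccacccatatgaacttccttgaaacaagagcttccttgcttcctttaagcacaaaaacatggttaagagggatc

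The motif was found once in the *Ifitm2* promoter and in 2 places in the *Ifitm3* promoter, and not in the windows of *Ifitm1* and *Ifitm6*. It was in 1131 of the 32851 promoters of that table (3.44%). The core of the interferon gamma-activated site, TTCNNNGAA, was found once in *Ifitm3*, where it overlapped the second response element, and once in *Ifitm6*, against 8.3% of all promoters. The *Ifitm1* and *Ifitm2* windows both lie inside their annotated genes, each around 1 of the gene starts, and an absent match says only that these letters are not in this window.

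In all, 57357 cells (39.6% of barcodes) passed limits on genes, UMIs, and mitochondrial share, with 1793 to 7413 cells per library. The UMI total over all deposited barcodes of a library, passing or not, was 77132398 to 176233225. Gates on marker UMIs placed 39027 cells in exactly 1 of 11 classes. Of 33 markers held back from the gates, 26 were highest in their own class. Cells gated on *Krt8* and *Krt18* without *Ptprc* are called Krt8/Krt18 cells, because the epithelial markers *Epcam* (3.98 CPM, UMIs scaled to a total of 1000000 per pool) and *Cldn4* (0.0776 CPM) were near 0 and *Krt19* was at 17.2 CPM. Among passing cells, 2057 barcode sequences were found in more than 1 library (7.27% of cells). Deposited barcodes under 1000 UMIs, which can hold free RNA, debris, or cells with little RNA, had 201 to 1436 CPM of *Ifitm1* over the 16 libraries, 1070 to 3206 of *Ifitm2*, 817 to 1466 of *Ifitm3*, and 4.40 to 46.2 of *Ifitm6*.

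In CD8 T cells, *Ifitm1* was higher in each pool with PancVAX than in any pool without it. Without PancVAX it was at 1674 CPM with isotype control, 822 with anti–PD-1, 1214 with anti–CTLA-4, and 1317 with both antibodies. With PancVAX it was at 2659 CPM alone, 2677 with anti–PD-1, 2937 with anti–CTLA-4, and 3195 with both. The means were 2867 ± 253 CPM and 1257 ± 351 CPM (SD, n = 4 pools each), a 2.28-fold ratio, and anti–PD-1 alone was the lowest pool. Since these values chose the gene, no test was made. Among all genes with a mean of at least 10 CPM in these cells, 21.0% also had all PancVAX pools above the others.

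*Ifitm3* in CD8 T cells had the same order of groups at a lower level, from 196 to 240 CPM without PancVAX and from 356 to 554 with it (2.02-fold). *Ifitm2* differed less, from 405 to 662 CPM against 634 to 730, and its groups overlapped. *Ifitm6* was at 0 to 1.87 CPM in every pool. CD8 T cells with PancVAX were shallower (median 3411 to 3553.5 UMIs per cell by pool against 4269 to 5064.5), and 490 to 767 of them per pool fell in the effector gate against 44 to 86 without it. The summed myeloid genes *S100a8*, *S100a9*, and *Lyz2* were at a mean of 318 CPM in CD8 T cells with PancVAX and 152 CPM without. The part of these shifts in the ratios was not tested. When cells above the upper limits on genes and UMIs were kept, an alternative chosen after seeing the data, the ratio fell to 1.78 for *Ifitm1*, 1.08 for *Ifitm2*, and 1.23 for *Ifitm3*. That alternative kept 120419 cells of all kinds, against 57357 with the upper limits.

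All CD8 states other than exhausted cells had a higher mean of *Ifitm1* with PancVAX, by ratios that differed between them. Effector cells, gated as *Pdcd1*-negative, *Havcr2*-negative, and positive for *Ly6c2* and the chemokine *Ccl5*, had *Ifitm1* at 950, 543, 656, and 364 CPM without PancVAX (isotype control, anti–PD-1, anti–CTLA-4, both). With PancVAX they had 2992 CPM alone, 3443 with anti–PD-1, 3581 with anti–CTLA-4, and 4258 with both. The ratio of means was 5.68, with no overlap, as for 13.1% of genes in these cells in that direction. Stem-like cells, which carry the inhibitory receptor *Pdcd1* and the transcription factor *Tcf7* without *Havcr2*, ranged from 3130 to 6413 CPM with PancVAX. Without it they were at 2121, 546, 176, and 9.53 CPM in the same order, and these 4 values came from only 13 to 39 cells per pool (4.21% of genes had groups apart in that direction).

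Exhausted cells, which carry both inhibitory receptors *Pdcd1* and *Havcr2*, ran the other way on average. *Ifitm1* was at 2626, 1034, 2271, and 2836 CPM without PancVAX, in the same order of treatments. It was at 1200 CPM with PancVAX alone, 1701 with anti–PD-1 added, 2439 with anti–CTLA-4, and 1134 with both. The groups overlapped widely, with 1619 ± 603 CPM against 2192 ± 806 CPM (SD, n = 4 pools each), and 50 to 113 exhausted cells stood behind each value. So exhausted cells had the higher *Ifitm1* than effector cells in all 4 pools without PancVAX, and the lower in all 4 pools with it. Neither *Ifitm2* (688 against 689 CPM) nor *Ifitm3* (294 against 277 CPM) showed a difference of means beyond its spread in the exhausted cells.

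**Figure D1:**
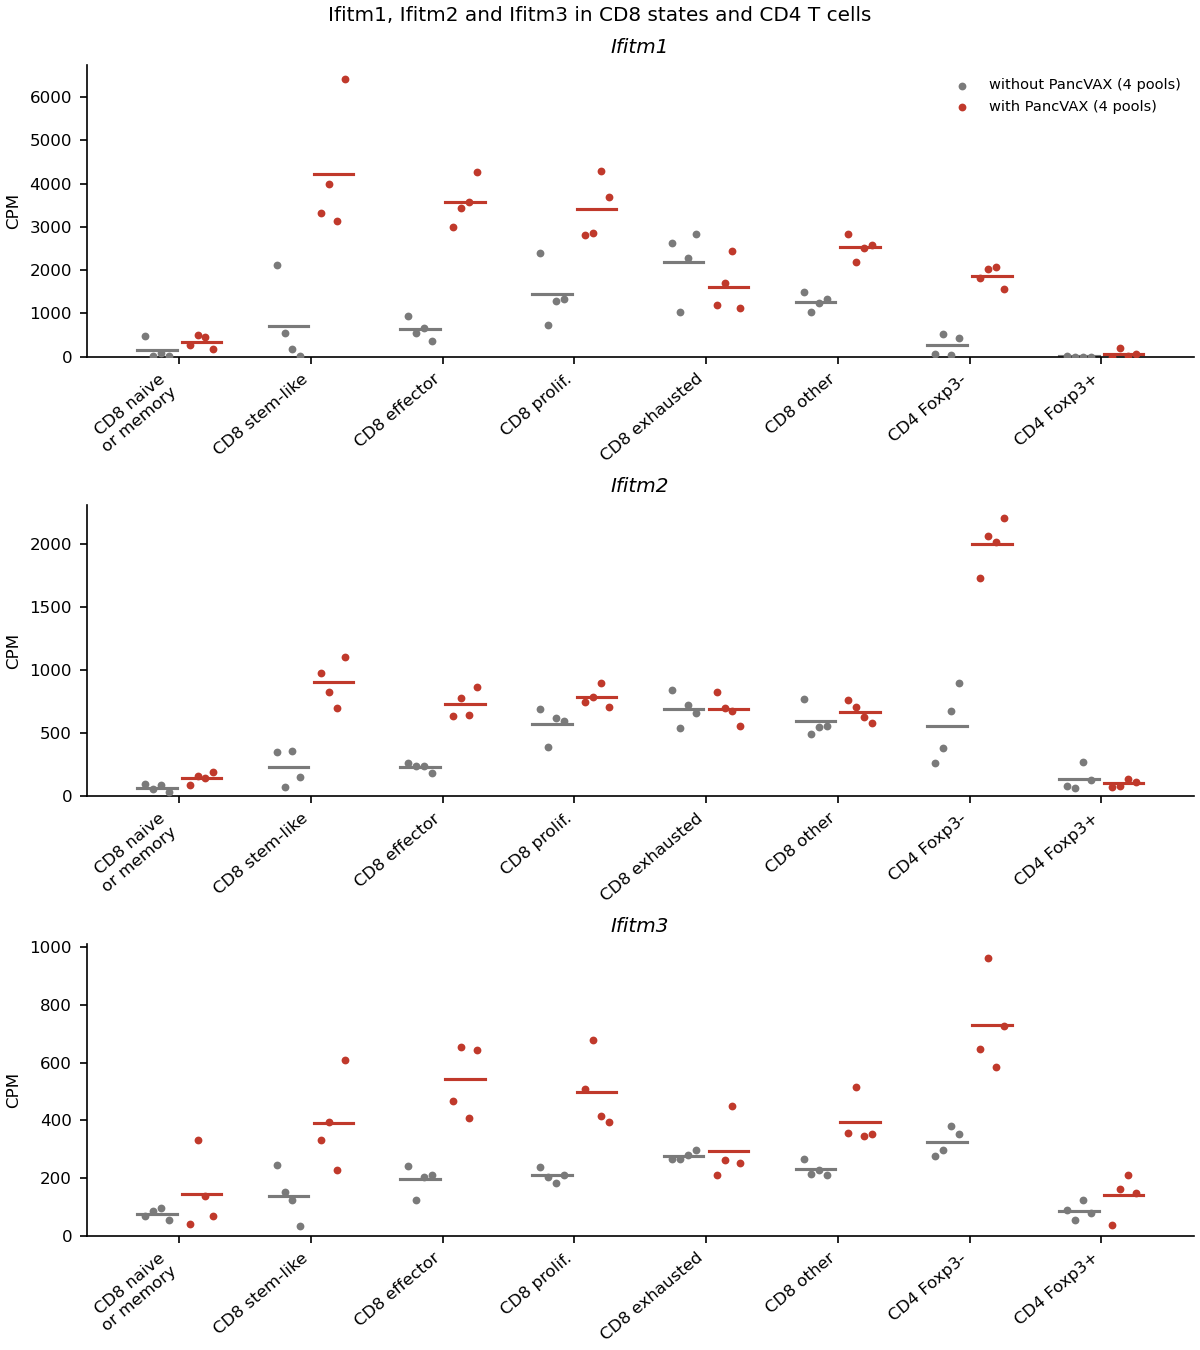
CPM (linear axis from 0) of Ifitm1, Ifitm2, and Ifitm3 in CD8 states and in CD4 T cells split by Foxp3, with 1 point per treatment pool, bars at the mean, and pools with PancVAX in red. Ifitm1 in effector cells lies at 2992 to 4258 CPM with PancVAX and at 364 to 950 without, while exhausted cells overlap and Foxp3-positive cells stay low.

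Naive or memory CD8 T cells were low in all members, with a mean of 246 CPM of *Ifitm1*, 105 of *Ifitm2*, and 110 of *Ifitm3* over the 8 pools. Their *Ifitm1* mean was 347 CPM with PancVAX (174 to 495) and 146 CPM without (4.85 to 488), and the groups overlapped. Within these cells the isotype control pool stood apart, at 488 CPM of *Ifitm1* against 4.85 to 76.7 CPM in the other 3 pools without PancVAX. Proliferating cells had *Ifitm1* at 2807 to 4279 CPM with PancVAX and 726 to 2400 without (10.1% of genes apart in that direction). The 4904 CD8 T cells of no named state had *Ifitm1* at 2178 to 2828 CPM with PancVAX and 1038 to 1497 without (1.98-fold, 14.0% of genes apart in that direction).

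Among CD4 T cells, which help other lymphocytes, the members differed by *Foxp3*, the transcription factor of regulatory T cells. In *Foxp3*-negative cells *Ifitm1* was at 60.5 CPM with isotype control, 515 with anti–PD-1, 47.4 with anti–CTLA-4, and 437 with both. With PancVAX it was at 1814, 2018, 2067, and 1554 CPM in the same order, and the ratio of means was 7.03 (7.01 with 1 CPM added to each mean). The isotype control and anti–CTLA-4 values each rest on 13 UMIs, in 58 and 80 cells. The CD8 T cell genes *Cd8a*, *Cd8b1*, and *Gzmb* summed to a mean of 279 CPM in these cells with PancVAX and 153 CPM without, and their part in the ratio was not tested. *Ifitm2* was at 261 to 900 CPM without and 1729 to 2200 CPM with PancVAX, and *Ifitm3* at 275 to 379 and 583 to 963 CPM. None of these 3 groups overlapped, as for 4.52% of all genes at 10 CPM or more in the same direction in these cells. With the upper limits lifted the ratio for *Ifitm1* was 3.99, and with stricter gates it was 4.56.

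In *Foxp3*-positive CD4 T cells *Ifitm1* was nearly absent in the pools without PancVAX, with 2 UMIs in 95 cells, and with PancVAX it had 0, 30, 2, and 9 UMIs in 22, 42, 43, and 36 cells. In this gate the summed *S100a8*, *S100a9*, and *Lyz2* were at a mean of 1077 CPM with PancVAX and 20.04 CPM without, and *Cd8a*, *Cd8b1*, and *Gzmb* at 1187 and 468 CPM, and their part in these UMIs was not tested. Over the 8 pools the mean was 37.1 ± 67.9 CPM in *Foxp3*-positive and 1064 ± 883 CPM in *Foxp3*-negative cells (SD, n = 8). *Ifitm2* (118 ± 68.2 against 1277 ± 806 CPM) and *Ifitm3* (113 ± 58.6 against 528 ± 244 CPM) were lower in *Foxp3*-positive cells as well. Each of the 3 was lower in 8 of 8 pools, and 8.23% of all genes at 10 CPM or more in these cells differed the same way in all pools, in either direction (exact two-sided sign-flip permutation test over pools, p = 0.0078, adjusted p = 0.0104 over 8 comparisons chosen after the levels were seen). That p is the smallest 8 pairs can give. *Foxp3*-negative cells were 1081 of the 1319 CD4 T cells, whose *Ifitm1* level with PancVAX chose the family. For *Ifitm1* the p therefore rests in part on the selecting values and is no independent support. *Ifitm6* was near 0 on both sides.

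The share of cells with at least 1 UMI, after each cell was thinned to 1000 UMIs, followed the levels. *Ifitm1* was detected in 36.5% of CD8 T cells with PancVAX and 23.2% without (means over pools, 41.9% and 30.3% before thinning). In *Foxp3*-negative CD4 T cells the shares were 23.2% and 5.53% (30.0% and 8.36% before thinning). B cells, which should hold little *Ifitm1*, had it in 1.87% of thinned cells at a median of 2047 UMIs, against 3910 in CD8 T cells. In effector CD8 T cells the thinned share was 41.6% with PancVAX and 9.52% without, and in exhausted cells it was 27.7% and 37.8%. Most CD8 T cells of either group gave no *Ifitm1* UMI at that depth.

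TCR sequences gave a measure that the choice of genes had not used. In the Percoll libraries 7738 cells had exactly 1 productive TRB chain, and 943 of 3846 clones had 2 or more cells. Among CD8 T cells, 3135 came from such expanded clones and 1303 were singletons. *Ifitm2* rose with expansion, at 725 ± 107 CPM in expanded and 424 ± 214 CPM in single cells (SD, n = 8 libraries). The mean log2 difference was 0.93 ± 0.67 (SD), with 7 of 8 libraries higher in expanded cells (exact two-sided sign-flip permutation test, p = 0.0156, adjusted p = 0.0469 over 4 members). *Ifitm1* rose as well, at 2354 ± 875 against 1655 ± 1122 CPM, with a mean log2 difference of 0.82 ± 0.84 (SD) and 7 of 8 libraries higher (exact p = 0.0234, adjusted p = 0.0469). Of 7052 genes with a mean of at least 10 CPM in these cells, 22.0% had an unadjusted p this low or lower in the same exact permutation test, so the calls are not particular to the members. *Ifitm3* did not pass the threshold (322 ± 105 against 269 ± 122 CPM, exact p = 0.0469, adjusted p = 0.0625).

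The ratio of *Ifitm1* in expanded to single cells was 1.81 with isotype control, 2.42 with anti–PD-1, 5.76 with anti–CTLA-4, and 1.83 with both. With PancVAX it was 1.21, 1.22, 1.69, and 0.824 in the same order, so the exception was the library with all 3 agents. Naive or memory cells made up 15.9% to 42.0% of singletons without PancVAX, 7.76% to 12.7% with it, and at most 1.87% of expanded cells. Exhausted cells made up 5.22% to 18.7% of expanded cells and 2.74% to 5.80% of singletons, with the higher share in expanded cells in all 8 libraries. Outside the exhausted gate the mean log2 difference was 0.89 for *Ifitm1*, 0.98 for *Ifitm2*, and 0.44 for *Ifitm3*, and all 3 passed (exact permutation test, adjusted p = 0.0417). No share over all genes is given for those cells, so these calls cannot be set against a background. With clones of 3 or more cells the mean log2 difference was 0.84 for *Ifitm1* and 0.95 for *Ifitm2* (exact permutation test, adjusted p = 0.0625), and no member passed. Without naive or memory cells, an alternative chosen after seeing these shares, the mean log2 difference was 0.57 for *Ifitm1* and 0.66 for *Ifitm2* and neither passed (exact permutation test, adjusted p = 0.0781 for both). With 1 library left out in turn, the difference was 0.58 to 0.98 for *Ifitm1* and 0.82 to 1.09 for *Ifitm2*. No member passed in 7 of 8 cases, where 7 pairs cannot give an exact permutation p under 0.0156.

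**Figure D2:**
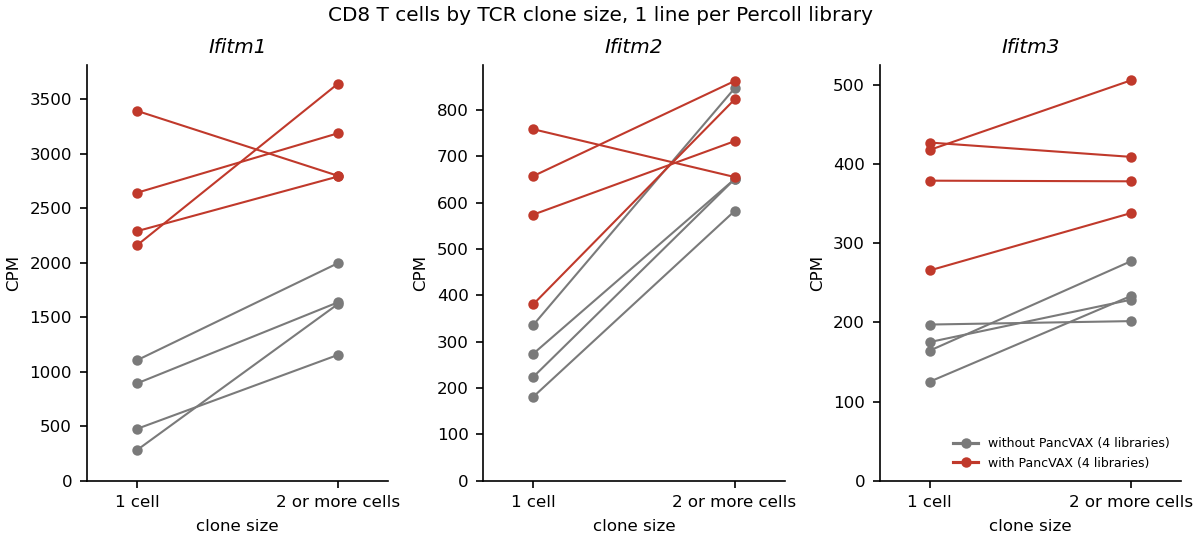
CPM of Ifitm1, Ifitm2, and Ifitm3 in CD8 T cells of clones with 1 cell and with 2 or more cells, with 1 line per Percoll library (red with PancVAX, gray without) and linear axes from 0. Lines rise in 7 of 8 libraries for Ifitm1 and Ifitm2, and all 4 gray lines of Ifitm1 start between 282 and 1106 CPM.

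Over all 11 classes, each member had its own order of levels. *Ifitm6* was almost confined to 3 myeloid classes among those gated, with 468 ± 133 CPM in monocytes, 207 ± 58.7 in dendritic cells, and 65.3 ± 33.9 in neutrophils (SD, n = 8 pools). Macrophages, which stand close to monocytes by origin, had 9.74 ± 3.05 CPM. Each of these 3 steps was in the same direction in 8 of 8 pools (exact two-sided sign-flip permutation test, p = 0.0078, adjusted p = 0.0284 over 40 neighbor pairs of the 4 members). Fibroblasts and endothelial cells had 0 UMIs of *Ifitm6* in 265 and 247 cells, which allows up to 2.46 and 2.66 CPM from counting error alone, and up to 1.13% and 1.21% of cells with a UMI. T, B, and NK cells had mean levels of at most 5.48 CPM.

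*Ifitm3* was highest in monocytes, at 5414 ± 666 CPM, and next in endothelial cells, at 3984 ± 735 CPM. Fibroblasts (2405 ± 518), Krt8/Krt18 cells (2115 ± 126), dendritic cells (1925 ± 408), and neutrophils (1598 ± 365) followed, and neighbors among these 4 did not differ beyond their spread. Macrophages had 1216 ± 158 CPM, CD4 T cells 447 ± 225, CD8 T cells 323 ± 131, B cells 203 ± 91.9, and NK cells 135 ± 68.2. The T cell means again mix unlike pools, at 631 CPM with PancVAX and 264 without in CD4 T cells and at 433 and 214 CPM in CD8 T cells. Steps that passed were monocytes over endothelial cells, endothelial cells over fibroblasts, and macrophages over CD4 T cells (exact permutation test, each adjusted p = 0.0284), and also neutrophils over macrophages and CD4 over CD8 T cells (exact permutation test, each adjusted p = 0.0446).

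*Ifitm2* was highest in neutrophils, at 4078 ± 361 CPM, followed by monocytes at 2610 ± 180 CPM and endothelial cells at 1557 ± 299 CPM, and both steps passed (exact permutation test, adjusted p = 0.0284, 8 of 8 pools). Dendritic cells (1460 ± 273), macrophages (1194 ± 45.8), fibroblasts (1118 ± 231), CD4 T cells (1056 ± 687), and Krt8/Krt18 cells (766 ± 41.6) came next, with no step among them past the threshold. The place of CD4 T cells depends on the pools, at a mean of 1672 CPM with PancVAX and 441 CPM without, the latter below Krt8/Krt18 cells (741 CPM) and CD8 T cells (524 CPM). CD8 T cells had 605 ± 113 CPM, below Krt8/Krt18 cells and above B cells (153 ± 113) in 8 of 8 pools (exact permutation test, adjusted p = 0.0284). NK cells had 176 ± 129 CPM.

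*Ifitm1* had another order, led by CD8 T cells (2062 ± 906 CPM), dendritic cells (1614 ± 451), neutrophils (1231 ± 165), and CD4 T cells (871 ± 744). This order mixes pools with unlike T cell levels. Without PancVAX the means were 1771 CPM in dendritic cells, 1257 in CD8 T cells, 1188 in neutrophils, 431 in monocytes, and 195 in CD4 T cells, and CD8 T cells were above dendritic cells in 4 of 8 pools. Monocytes, the class with the most *Ifitm3*, had 463 ± 189 CPM and macrophages 174 ± 92.6 CPM. The only step past the threshold among its 10 was macrophages over Krt8/Krt18 cells (40.9 ± 35.1 CPM, exact permutation test, adjusted p = 0.0284). Fibroblasts, endothelial cells, B cells, and NK cells were at 29.1 to 90.8 CPM on average. In all, 14 of 40 neighbor pairs passed. Over the same class pairs, 44.2% of all genes at 10 CPM or more had an unadjusted p as low as that of the members that passed (0.0156 or lower, exact permutation test), so the count does not set the members apart. The number that passed was 8 when the upper limits were lifted and 7 in whole tumor alone. Fewer pairs were compared in whole tumor, where fibroblasts, with 5 cells in the pool of both antibodies and no vaccine, were left out. Among the 14 is *Ifitm6* in Krt8/Krt18 cells over fibroblasts, where the higher mean (0.575 CPM) is under what the 0 UMIs of fibroblasts allow, so no difference was detectable at this depth.

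**Figure D3:**
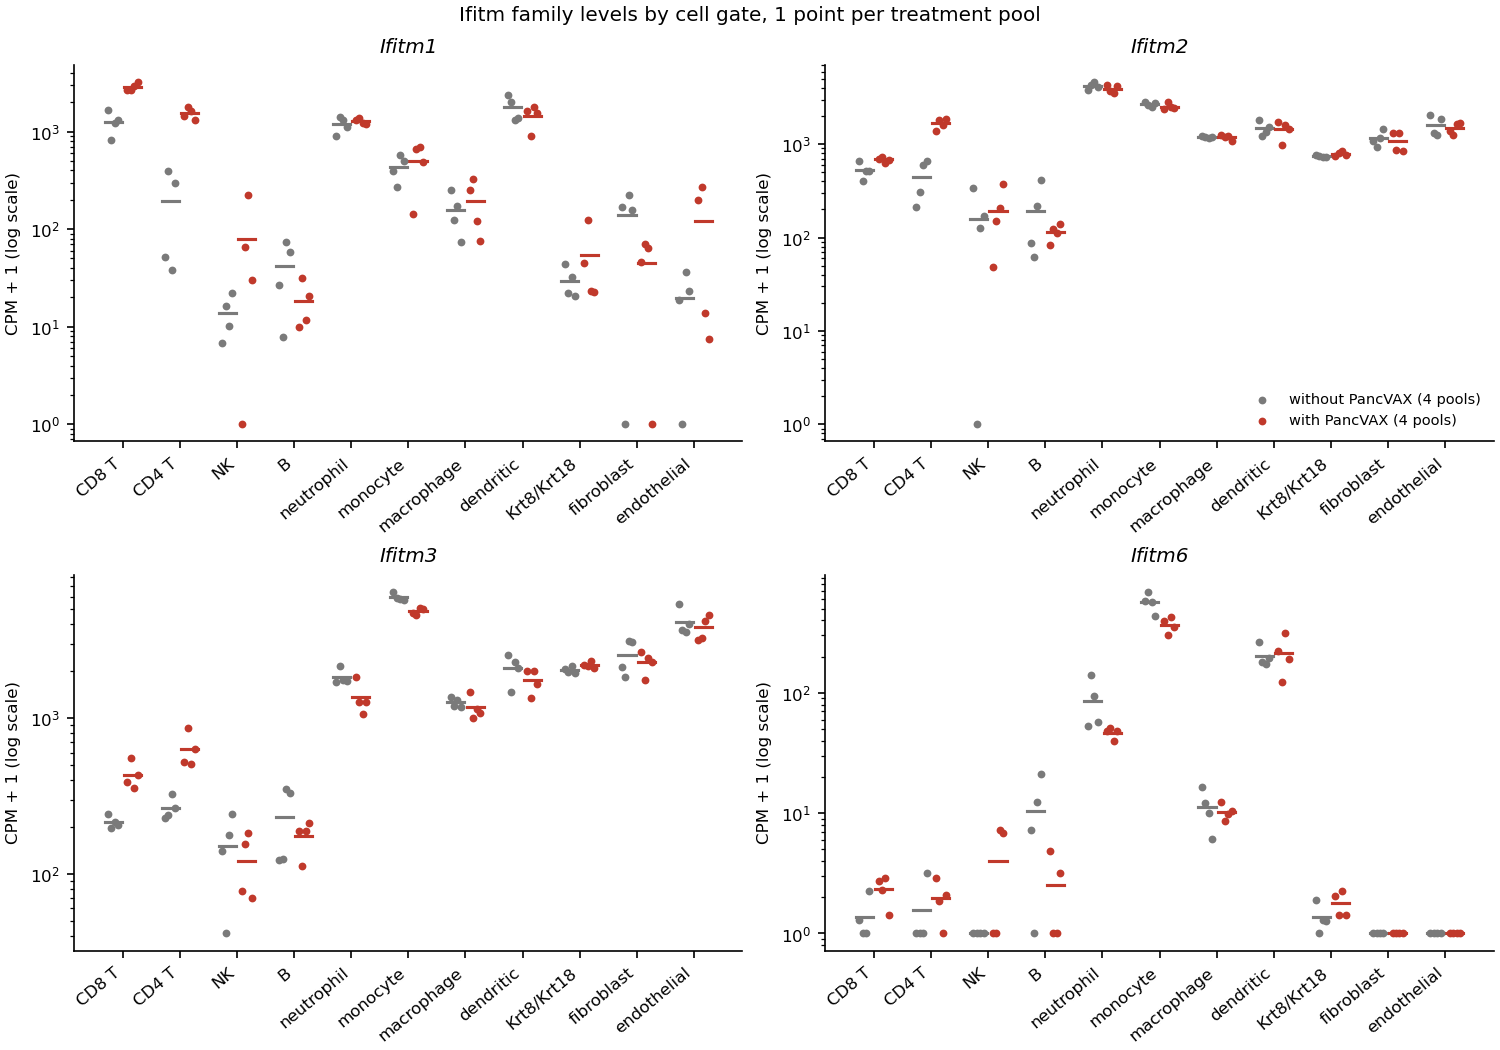
CPM + 1 on a log axis for each member in the 11 cell classes, with 1 point per treatment pool, bars at the mean, and pools with PancVAX in red. Ifitm6 is above 100 CPM in every pool of monocytes and dendritic cells and in 1 pool of neutrophils, Ifitm2 peaks in neutrophils, and Ifitm1 is low in Krt8/Krt18, B, and NK cells.

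Single markers split 2 of the myeloid classes further. Neutrophils with the granulocyte gene *Retnlg* (637 of 3398 cells) had more *Ifitm1* (1866 ± 564 against 1062 ± 84.3 CPM), *Ifitm2* (5234 ± 584 against 3767 ± 294 CPM), and *Ifitm6* (151 ± 95.6 against 39.4 ± 8.58 CPM) than those without. Each was higher in 8 of 8 pools, and 21.5% of all genes at 10 CPM or more in neutrophils differed the same way in all pools, in either direction (exact permutation test, p = 0.0078, adjusted p = 0.0104 over the 8 comparisons that also hold the *Foxp3* split). *Ifitm3* was at 1879 ± 537 against 1521 ± 350 CPM, higher in 6 of 8 pools, and did not pass (exact permutation test, adjusted p = 0.107).

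Dendritic cells were split by the markers of their subsets without a test, because some pools had only 4 cells. Those with *Cd209a*, a lectin of conventional type 2 and monocyte-derived dendritic cells, had 3906 ± 975 CPM of *Ifitm3* and 475 ± 199 of *Ifitm6*, against 1141 ± 492 and 101 ± 61.1 in the others (SD, n = 8 pools). Cells with *Xcr1*, the chemokine receptor of cross-presenting type 1 dendritic cells, had 451 ± 374 CPM of *Ifitm1* against 1943 ± 435 without it. Cells with *Ccr7*, the receptor for migration to lymph nodes, had 911 ± 461 CPM of *Ifitm3* against 2310 ± 539. Each of these differences had the same direction in 7 or 8 of 8 pools, and no share over all genes is given. The other members went the same way on average in each split. Cells with *Xcr1* also had less *Ifitm2* (653 against 1722 CPM), *Ifitm3* (842 against 2262 CPM), and *Ifitm6* (72.0 against 249 CPM). Cells with *Ccr7* also had less *Ifitm1* (845 against 1915 CPM). *Ifitm1* with *Cd209a* and *Ifitm2* with *Ccr7* went that way in 6 of 8 pools.

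Outside T cells, the question was whether the members differed with PancVAX in classes that had not chosen them. No pair of member and class passed the threshold (adjusted P under 0.05 and a log2 fold change over 0.5, edgeR quasi-likelihood test on pool sums, Benjamini-Hochberg over all genes of a class). Of 31 pairs tested, 6 had an unadjusted P under 0.05, of which 5 were lower with PancVAX, and DESeq2 also called none. Among all genes and these classes, 0.0751% of 53234 pairs passed. Calls over all genes moved with the fit, from 40 pairs to 26 to 214 with each pool left out and to 329 of 138033 pairs without a low-count filter, where 5 member pairs also passed (*Ifitm6* in monocytes and neutrophils, and *Ifitm1* in B, NK, and endothelial cells). The values with a pool left out given next are to be read against those counts.

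The lowest adjusted P values were in monocytes, the blood-derived precursors of tumor macrophages. *Ifitm6* was at 582, 693, 569, and 434 CPM without PancVAX and at 391.8, 299, 424, and 353 CPM with it (isotype control or no antibody, anti–PD-1, anti–CTLA-4, both). Every pool with PancVAX was below every pool without it. By preparation, the Percoll libraries lay apart, at 241 to 499 CPM with and 614 to 738 CPM without PancVAX. The whole-tumor libraries overlapped, at 291 to 378 CPM with and 194 to 679 CPM without. Over pools, the log2 fold change was -0.65 ± 0.15 (SE, edgeR adjusted P = 0.0622). It was past the threshold with the pool of PancVAX alone left out (-0.63, edgeR adjusted P = 0.0461), that of PancVAX with anti–CTLA-4 (-0.74, adjusted P = 0.040), that of all 3 agents (-0.68, adjusted P = 0.043), or that of both antibodies alone (-0.75, adjusted P = 0.0196). Without the anti–PD-1 pool it was -0.48 (edgeR adjusted P = 0.400). *Ifitm3* was at 6478, 5930, 5789, and 5751 CPM without and 4701, 4618, 5054, and 4990 CPM with PancVAX, again with no overlap, as for 1.38% of genes at 10 CPM or more in that direction. Its log2 fold change was -0.34 ± 0.09 (SE, edgeR adjusted P = 0.0956). For *Ifitm3* the Percoll libraries overlapped, at 4965 to 5702 CPM with and 5520 to 6631 CPM without PancVAX. The whole-tumor libraries did not, at 3991 to 4653 CPM and 4860 to 6373 CPM. Each pool had 34 to 67 monocytes, and with the upper limits lifted the log2 fold changes were -0.40 for *Ifitm6* and -0.11 for *Ifitm3*.

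Neutrophils showed lower values of the same members without passing. The macrophage genes *C1qa*, *C1qb*, and *Apoe* summed to a mean of 569 CPM in the neutrophil gate with PancVAX and 973 CPM without, and their part was not tested. *Ifitm3* ranged from 1712 to 2158 CPM without and from 1068 to 1835 CPM with PancVAX, and its log2 fold change was -0.50 ± 0.15 (SE, edgeR adjusted P = 0.389). Without the pool of PancVAX alone, at 1835 CPM, it was -0.72 (edgeR adjusted P = 0.000255), and without the isotype control pool -0.64 (edgeR adjusted P = 0.0116). *Ifitm6* ranged from 52.1 to 139 CPM without and from 38.8 to 49.6 CPM with PancVAX, with no overlap, as for 1.18% of genes in that direction (log2 fold change -0.90 ± 0.29 SE, edgeR adjusted P = 0.486), and without the isotype control pool it was -1.20 (edgeR adjusted P = 0.00347) and without the pool of both antibodies and no vaccine -1.17 (edgeR adjusted P = 0.0391). Within each preparation the libraries of *Ifitm6* overlapped. In Percoll they were at 28.7 to 65.6 CPM with and 43.5 to 189 CPM without PancVAX. In whole tumor they were at 22.0 to 45.5 CPM and 33.0 to 99.5 CPM. The highest pool, anti–PD-1, had 85 UMIs of *Ifitm6* in its Percoll library and 7 in whole tumor. With each pool left out, the log2 fold change of *Ifitm6* ranged from -1.20 to -0.51, the latter without the anti–PD-1 pool, and that of *Ifitm3* from -0.72 to -0.38. *Ifitm1* and *Ifitm2* in neutrophils differed by less than the spread between pools, with and without PancVAX at 1274 ± 84.9 and 1188 ± 227 CPM and at 3925 ± 375 and 4230 ± 320 CPM (SD, n = 4 pools each).

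**Figure D4:**
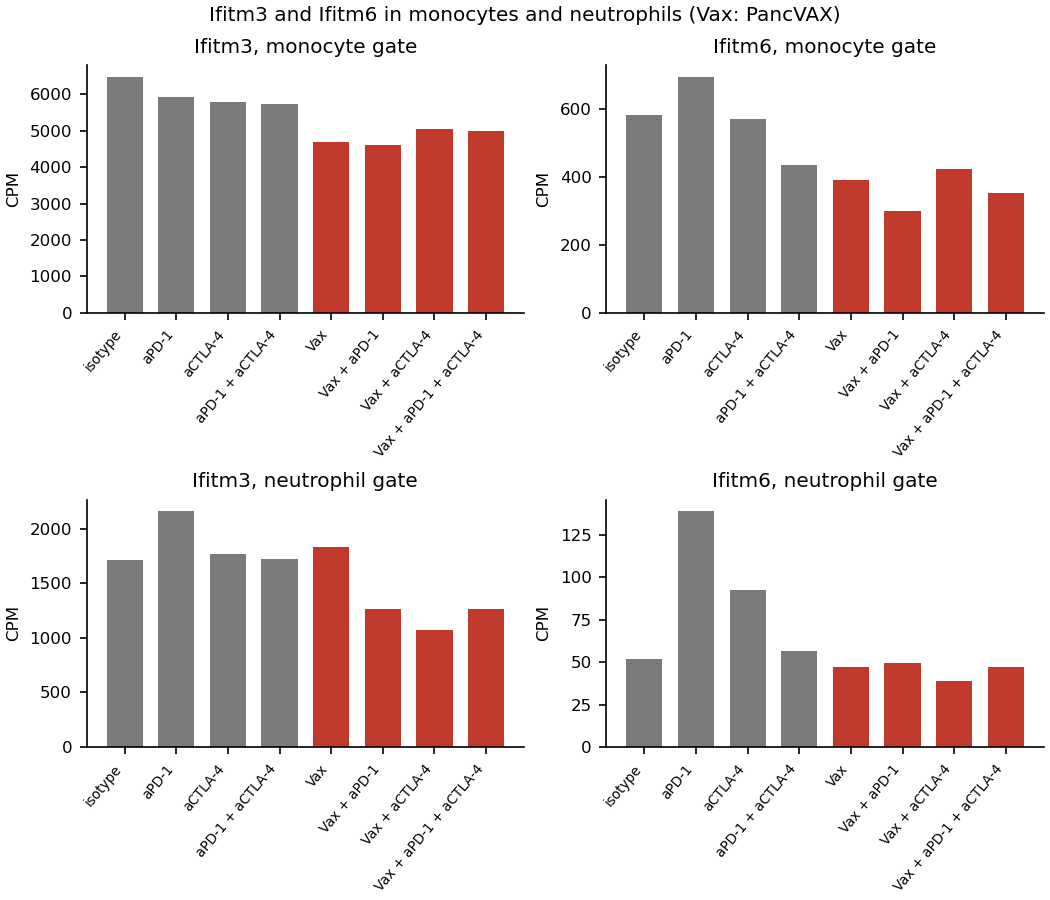
CPM of Ifitm3 and Ifitm6 in monocytes and neutrophils in each of the 8 treatment pools, as bars from 0, with pools with PancVAX in red. In monocytes all 4 red bars are below all 4 gray bars for both genes, and in neutrophils the anti–PD-1 pool is highest, at 2158 CPM of Ifitm3 and 139 CPM of Ifitm6.

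In the other classes the spread between pools differed by member. Krt8/Krt18 cells had *Ifitm3* at 1945 to 2337 CPM over all pools, and macrophages had *Ifitm2* at 1093 to 1244 CPM and *Ifitm1* at 73.2 to 324 CPM. Dendritic cells had *Ifitm1* at 908 to 2381 CPM and *Ifitm3* at 1349 to 2544 CPM, and endothelial cells had *Ifitm3* at 3174 to 5372 CPM. *Ifitm1* in B cells was lower with PancVAX (log2 fold change -1.65 ± 0.52 SE, edgeR adjusted P = 0.871), but no pool was above 73.3 CPM or 58 UMIs. With each pool left out it ranged from -1.95 (without anti–PD-1, edgeR adjusted P = 0.0114) to -0.90 (without PancVAX + anti–CTLA-4), and the summed *S100a8*, *S100a9*, and *Lyz2* in B cells were at a mean of 300 CPM with PancVAX and 1042 CPM without. In NK cells it was higher (2.50 ± 0.94 SE, edgeR adjusted P = 0.535) from 0 to 35 UMIs per pool, 33 of them in 1 Percoll library. There were 65 UMIs in all, 35 of them in the pool of PancVAX with anti–CTLA-4, and without that pool or that of PancVAX with anti–PD-1 the gene did not pass the low-count filter, so neither fit gave a value. In the 6 other fits with a pool left out, it ranged from 1.95 (without anti–CTLA-4) to 3.71 (without all 3 agents, edgeR adjusted P = 7.87e-06), and without PancVAX alone it was 2.95 (edgeR adjusted P = 0.0202). The same myeloid genes in NK cells were at 421 CPM with and 95.4 CPM without PancVAX, and their part in these differences was not tested.

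Neither checkpoint antibody called a pair of member and class. These pairs run over 19 gates, namely the 11 classes, the *Foxp3* gates of CD4 T cells, and the 6 CD8 states. T cells thus enter both as a class and as a part of it, here and in the background shares. For anti–PD-1, 0 of 60 pairs passed and 6 had an unadjusted P under 0.05 (edgeR, and none by DESeq2), all 6 lower, with a background of 0.0319% of 115927 pairs. Of these, 3 were in dendritic cells, where *Ifitm3* was at 2544, 2273, 2014, and 2005 CPM in pools without anti–PD-1 and at 1471, 2094, 1349, and 1646 CPM in pools with it, which overlapped (log2 fold change -0.44 ± 0.14 SE, edgeR adjusted P = 0.475). In CD8 T cells the log2 fold change with anti–PD-1 was -0.20 ± 0.23 (SE) for *Ifitm1*, -0.13 ± 0.13 for *Ifitm2*, and 0.12 ± 0.12 for *Ifitm3* (edgeR adjusted P = 1.00 for each). In CD4 T cells *Ifitm1* was at 0.87 ± 0.65 (SE, edgeR adjusted P = 0.999).

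For anti–CTLA-4, 0 of 60 pairs passed and 10 had an unadjusted P under 0.05 (6 higher and 4 lower, edgeR), none passed by DESeq2, and the background was 0.0449%. In B cells the 3 members tested all had higher values, with log2 fold changes of 1.69 ± 0.49 for *Ifitm1*, 1.30 ± 0.44 for *Ifitm2*, and 0.91 ± 0.23 for *Ifitm3* (SE, edgeR adjusted P = 0.464, 0.798, and 0.241). All 3 passed without a low-count filter, where calls over all genes went from 52 to 402 pairs. With each pool left out calls over all genes ranged from 53 to 129 pairs, and *Ifitm1* ranged from 0.94 (without anti–PD-1) to 2.00 (without isotype control), *Ifitm2* from 0.79 to 1.61, and *Ifitm3* from 0.74 to 1.33. Without PancVAX + anti–CTLA-4, *Ifitm1* (1.94, edgeR adjusted P = 0.0114) and *Ifitm3* (1.13, adjusted P = 0.00686) were past the threshold, as were *Ifitm1* without PancVAX + anti–PD-1 (1.84, adjusted P = 0.0478) and *Ifitm3* without PancVAX alone (1.33, adjusted P = 0.00114). The pools with anti–CTLA-4 and no PancVAX held the most, with 350 and 328 CPM of *Ifitm3* against 112 to 210 CPM in the 6 others. In B cells the summed neutrophil and monocyte genes *S100a8*, *S100a9*, and *Lyz2* ranged from 174 to 2920 CPM over pools, and their part in this difference was not tested. *Ifitm2* in CD4 T cells, which help B and CD8 T cells, was at 0.61 ± 0.26 (SE, edgeR adjusted P = 1.00).

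**Figure D5:**
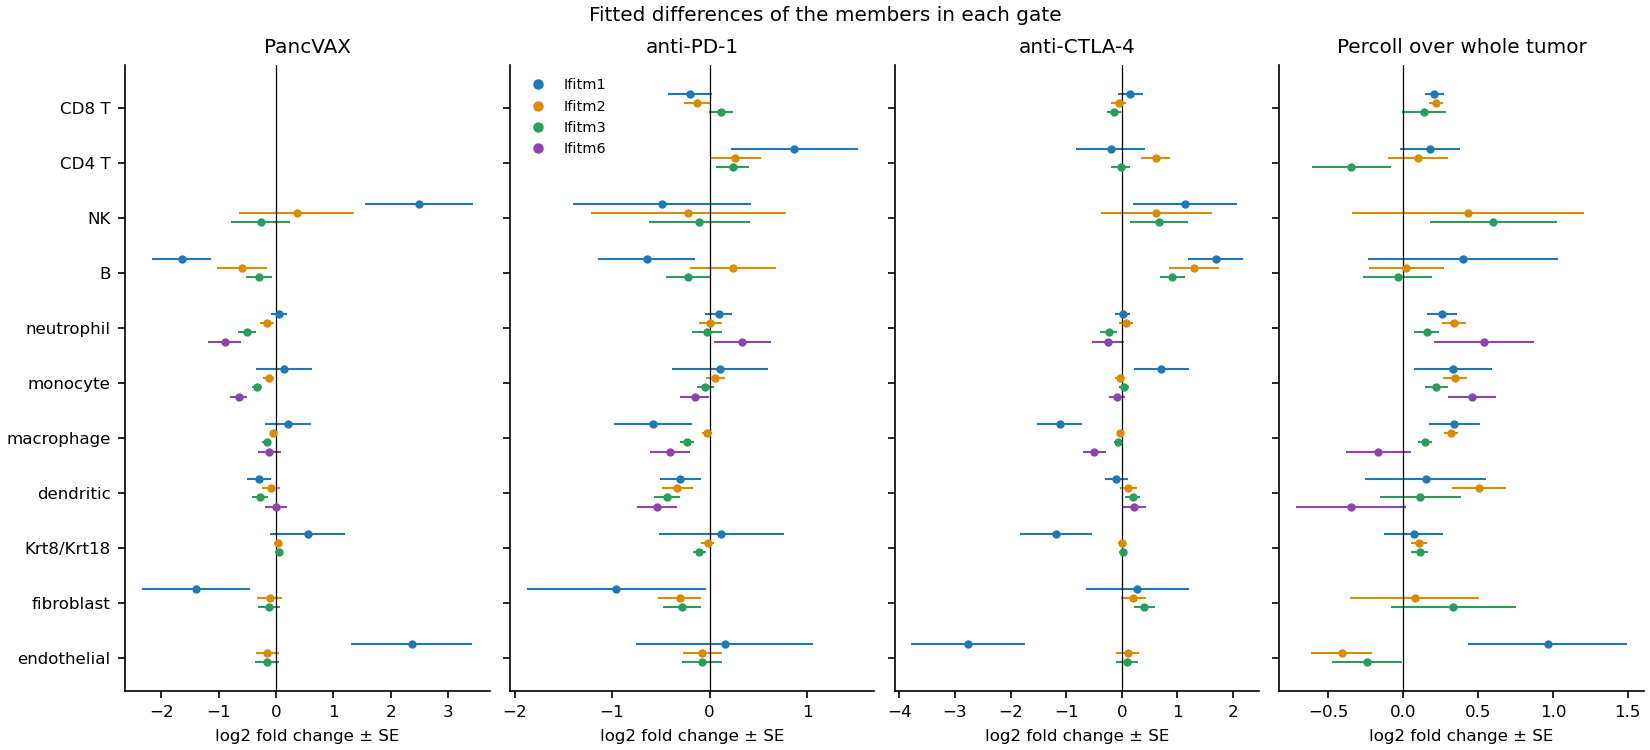
Fitted log2 fold changes with standard errors of the members in each class, for the vaccine and each checkpoint antibody (pools) and for Percoll over whole tumor (libraries), where T cells are left out of the PancVAX panel because their values chose the genes. Ifitm6 and Ifitm3 lie below 0 in monocytes and neutrophils with PancVAX, and all 3 members tested lie above 0 in B cells with anti–CTLA-4.

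Percoll enrichment, run as a separate sequencing batch, went with slightly higher levels of 3 members in some classes. No pair of 35 passed both thresholds (edgeR, treatments as a block, 16 libraries except 6 for fibroblasts and 8 for endothelial cells), 10 had an unadjusted P under 0.05, all higher in Percoll, and DESeq2 called none, while 4.29% of all gene and class pairs passed. With the fold change left aside, 6 pairs had an adjusted P under 0.05. *Ifitm2* was higher in Percoll in CD8 T cells (log2 fold change 0.22 ± 0.05 SE, edgeR adjusted P = 0.00282), neutrophils (0.34 ± 0.08, adjusted P = 0.0021), monocytes (0.34 ± 0.08, adjusted P = 0.00869), and macrophages (0.32 ± 0.05, adjusted P = 6.5e-06). *Ifitm1* in CD8 T cells was at 0.21 ± 0.06 (SE, edgeR adjusted P = 0.0394) and *Ifitm3* in macrophages at 0.15 ± 0.05 (adjusted P = 0.0243). Within each preparation the PancVAX ratio of *Ifitm1* in CD8 T cells remained, at 2.52 in whole tumor and 2.20 in Percoll libraries.

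A list of 43 interferon genes, which holds ligands, receptors, signaling genes, and induced genes, was set beside the members. It was written with earlier results of these data known, so its PancVAX counts in T cells are a description and no independent support. In CD8 T cells 39 were tested and 24 were higher and 0 lower with PancVAX (edgeR, against 6.72% of all genes higher), with a median log2 fold change of 0.74 against 0.01 over all genes, and this contrast also chose the members. Its leading genes were *Ifit1* and *Ifit3*, which encode antiviral tetratricopeptide proteins, at 46.5 ± 9.16 and 63.2 ± 21.7 CPM with and 8.69 ± 3.25 and 13.4 ± 5.35 CPM without PancVAX, and *Ifit3b* at means of 11.4 and 2.37 CPM (SD, n = 4 pools). In *Foxp3*-negative CD4 T cells, where the *Ifitm1* ratio was 7.03, only 1 of 31 list genes was higher (1.35% of all genes) and the median was 0.03. It was *Ifngr1*, a chain of the interferon gamma receptor, at 1158 ± 36.7 and 772 ± 159 CPM, named after its value was seen. There *Ifit1* was at 28.7 ± 16.1 and 22.1 ± 18.5 CPM, and the membrane proteins *Bst2* at 232 ± 27.8 and 209 ± 30.0 CPM and *Ly6a* at 1049 ± 122 and 1026 ± 193 CPM. In exhausted CD8 T cells 3 of 26 were higher (1.75% of all genes) and the median was 0.31, while *Ifitm1* was lower on average. In effector cells, where the *Ifitm1* ratio was 5.68, 5 of 38 were higher (3.97% of all genes) and the median was 0.24. The other states had 17 of 35 (proliferating, 5.46%, median 0.93), 4 of 26 (stem-like, 4.00%, 0.47), 1 of 25 (naive or memory, 0.103%, 0.016), and 20 of 38 (no named state, 4.89%, 0.67).

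In monocytes and neutrophils 0 of 33 and 0 of 37 list genes passed with PancVAX (edgeR, 0.101% and 0.388% of all genes), and the medians were -0.17 and -0.15 against -0.0045 and -0.0083 over all genes. With Percoll in CD8 T cells, where 5.02% of all genes passed, 3 of 39 list genes were higher and 1 was lower. The median of the list was -0.010 against -0.0055 over all genes. Higher were *Ifng*, its target *Irf1*, and the feedback inhibitor *Socs3*, by 1.10 ± 0.10, 0.53 ± 0.09, and 0.94 ± 0.10 on the log2 scale (SE, edgeR adjusted P = 3.62e-05, 0.00102, and 2.81e-06). The receptor chain *Ifngr2* was lower (-0.57 ± 0.16 SE, edgeR adjusted P = 0.0163). These 4 genes, and *Bst2* and *Ly6a* above, were named after their values were seen. *Irf1* and *Socs3* also passed with Percoll in CD4 T cells (0.73 and 0.93) and in B cells (1.94 and 1.59). *Socs3* passed in NK cells (1.26) and macrophages (0.57) as well, whereas *Ifng* passed in CD8 T cells alone.

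The genes most like each member over the 11 classes were found by Pearson's r of mean log2 levels, as a description with classes of the same libraries as points. For *Ifitm1* they were *Havcr2*, an inhibitory receptor of T and dendritic cells (r = 0.892), *Adam8* (0.878), and *Cd101* (0.868). For *Ifitm6* they were *Gpr141* (0.988), *Alox5ap*, which serves leukotriene synthesis (0.954), and *Gm9733* (0.953). For *Ifitm3* they were *Tubb6* (0.974), *Arpc1a* (0.938), and *Adam15* (0.935), and for *Ifitm2* *Znhit1* (0.914), *Sem1* (0.884), and *Mxi1* (0.881). Between members, r was highest for *Ifitm2* and *Ifitm3* (0.842) and lowest for *Ifitm1* and *Ifitm3* (0.122). Over the 16 libraries of CD8 T cells, which come in pairs of 1 treatment, *Ifitm1* ran closest to *Lgals3* (0.948), *H2afx* (0.945), and *Cdkn1a* (0.917). These values span the PancVAX contrast that chose *Ifitm1*, and 21.0% of genes at 10 CPM or more had all PancVAX pools higher. The r values are therefore a description and no independent support.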

How the data were processed

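Single-cell RNA was sequenced from 16 libraries (8 treatments, whole tumor or Percoll), and TCR contigs from the 8 Percoll libraries. The deposited values are UMI counts per gene and cell, which the authors made with Cell Ranger 4.0.0, and the submitters' processing notes name mm10. In the deposited contigs, cells with 1 productive TRB chain were grouped into clones by V gene and CDR3 within a library. Groups came from the sample titles.

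Cells with 200 to 3000 genes, 1000 to 10000 UMIs, under 10% mitochondrial UMIs, and no hemoglobin UMI were kept, following the study's limits. Classes were gated on marker UMIs. No doublet caller was run, but 451 cells meeting more than 1 gate were left out, and 17879 met none. Counts were summed per class and pool, and TMM-normalized sums were fitted with edgeR 4.0.16 (R 4.3.3) with a term for each of the 3 agents, in pools with at least 10 cells. The Percoll fit used libraries with treatment as a block. DESeq2 1.42.0 was an alternative, and the edgeR fit was tested on simulated data. The members were otherwise tested by sign-flip permutation on log2(CPM + 1). P values of the agent fits measure the spread of pools around the fit. With 1 pool per treatment and no term for agents acting together, that spread also holds any such joint effect. P values of the Percoll fit measure the spread of library differences within treatments, and those of the sign-flip tests the spread of paired differences over pools or libraries. Intervals and floors cover counting error only. The members are similar paralogs, so reads could be shared or lost between them. Library totals over all deposited barcodes ranged from 77132398 to 176233225 UMIs, and sums of rare classes limit the precision.

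The members, gene lists, and tests were chosen with earlier results of these data known. The text names the 4 members in every class, up to 3 interferon genes in each direction with the largest change in a fit where a member was past the threshold, the 3 genes most like each member, and the 3 most like Ifitm1 over CD8 T libraries (at least 50 CPM). No member was past the threshold in the main fits given here. Ifit1, Ifit3, and Ifit3b are the list genes with the largest change with PancVAX in CD8 T cells, where no member test is given. Other genes named outside this rule are said to be so where they appear. Alternatives were other limits, gates, filters, preparations, pseudocounts, DESeq2, and each pool left out.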

Additional observations from a re-analysis of the deposited data

Results flagged for a closer look

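In groups of 4 pools, the highest or lowest value was set against its gap to the nearest other pool, with members above a mean of 50 CPM. About 1 in 20 such groups is flagged by chance, and 3 of 112 groups screened were flagged here, fewer than that share. In neutrophils without PancVAX, Ifitm3 was at 2158 CPM with anti–PD-1 and at 1712 to 1766 CPM in the other 3 pools. In naive or memory CD8 T cells without PancVAX, Ifitm1 was at 488 CPM with isotype control and at 4.85 to 76.7 CPM in the others. In the CD8 T cells of no named state with PancVAX, Ifitm3 was at 515 CPM with anti–PD-1 added and at 347 to 357 CPM in the others. No cause was tested for these values.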

How the results depend on the processing

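Of 854 alternative values, 722 kept their direction and their side of the threshold or moved by less than the spread. Without a low-count filter the number of member and class pairs past the threshold was 5 for PancVAX outside T cells, 5 for anti–CTLA-4 (Ifitm1, Ifitm2, and Ifitm3 in B cells, Ifitm1 in endothelial cells, Ifitm2 in Foxp3-negative CD4 T cells), and 2 for Percoll (Ifitm2 in dendritic cells, Ifitm6 in neutrophils), while calls over all genes went from 40 to 329, 52 to 402, and 2509 to 3147, and for anti–PD-1 from 37 to 460. In whole tumor alone it was 1 for PancVAX and 1 for anti–CTLA-4, in Percoll alone 1 for anti–PD-1, and for anti–CTLA-4 it was 1 with stricter gates and 1 without upper limits on genes and UMIs. Calls over all genes in these last settings are not given here, so these single pairs cannot be set against a background. Leaving out each pool in turn gave 0 to 3 pairs for PancVAX (3 without PancVAX alone), 0 to 2 for anti–CTLA-4, 0 to 1 for anti–PD-1, 0 to 2 for Percoll, and 0 to 3 members for clones, while calls over all genes ranged from 26 to 214, 53 to 129, 31 to 89, and 2013 to 2678 in the first 4. Neighbor steps numbered 8 without upper limits and 7 in whole tumor, where fibroblasts were left out and fewer pairs were compared. For clones, 0 members passed with clones of 3 or more cells, without upper limits, and outside the naive or memory gate. The cause of these changes was not tested.

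In T cells the PancVAX alternatives were chosen after seeing the data. Without upper limits the log2 ratio was 0.84 for Ifitm1, 0.11 for Ifitm2, and 0.30 for Ifitm3 in CD8 T cells, 0.69 for Ifitm3 in CD4 T cells, 0.58 for Ifitm3 in Foxp3-negative cells, and 1.36 for Ifitm2 and 0.91 for Ifitm3 in effector cells. In whole tumor it was 0.89 for Ifitm3 in CD4 T cells, 0.82 in Foxp3-negative cells, and 1.95 for Ifitm2 in effector cells, and in Percoll 1.43 for Ifitm2 and 1.93 for Ifitm3 in effector cells. The log2 ratio of Ifitm1 in exhausted cells was -0.44, and -0.70 to -0.29 with each pool left out.

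Directions turned for 10 fitted or tested values, none of them a call. With anti–PD-1 in Percoll alone, dendritic cells had 0.020 for Ifitm2 and 0.26 for Ifitm6. Without upper limits, proliferating CD8 T cells had 0.0098 for Ifitm2 with anti–PD-1 and 0.31 for Ifitm3 with anti–CTLA-4, and clones had -0.14 for Ifitm3 and -0.12 for Ifitm6. With a pseudocount of 10 Ifitm6 in clones was at -0.0085, and with each library left out between -0.16 and 0.37.

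In exhausted cells the log2 ratios of Ifitm2 (-0.0018) and Ifitm3 (0.086) changed sign as well, between -0.10 and 0.11 and between -0.20 and 0.21 with each pool left out. Pairing by replicate number was not run, since the labels give the treatments no shared numbers. The antibodies were terms of the PancVAX fit and treatment was a block in the Percoll fit. Classes with few cells, such as monocytes, and the mice pooled in each library limit the precision.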
